A study of Mus musculus with 6 samples.

Results

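The genes described here are 40 genes of mitosis: kinases and cyclins, spindle checkpoint and kinetochore genes, and genes of the spindle and of cytokinesis. They were chosen by gene name and function out of the 31017 genes of the count table, with earlier results of these data known. RNA sequencing was performed on mouse Th17 cells (helper T cells named for interleukin 17) differentiated in culture, with 3 Control libraries from cells of WT genotype and 3 KO libraries from cells deficient in RTF1, a partner of the PAF1 complex that travels with RNA polymerase II. The strain, the age of the mice, the way Rtf1 was deleted and the culture times are not given in the sources used here. The labels do not say either that the replicates came from separate mice or cultures, so the p-values measure only the spread between these libraries, which between replicates 1 and 2 may be technical.

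A dividing cell enters mitosis when cyclin-dependent kinase 1, bound to cyclin B, is switched on. Chromosomes then condense, kinetochores form on the centromeres and attach to spindle microtubules, and the spindle checkpoint holds back the anaphase-promoting complex until every chromosome is attached. Most genes of this programme are transcribed in late S, G2 and M phase and are nearly silent in resting cells, and activated T cells, which divide rapidly, carry large amounts of their transcripts.

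Library totals ranged from 16489813 to 51271226 counts, and every mitosis gene had at least 231 counts in every library. Rtf1 itself held 94, 91.2 and 88.3 CPM in Control against 45.3, 30.4 and 26.2 CPM in KO (CPM, counts scaled to library size with TMM factors, in order of replicate number), and its log2 fold change was −1.42 (SE 0.191, edgeR adjusted p = 0.000755), so transcript remained in the KO libraries. Replicate 3 of each group stands apart by Y-linked counts, 11376 and 5147 over 4 genes against 1 to 3 in the other libraries, and by the female transcript Xist, 5 and 1 counts against 14668 to 28176, so each group held RNA from more than 1 mouse. The 8 markers of T helper cells summed to 1877 to 2453 CPM in Control and 1682 to 2224 CPM in KO, with Cd4 (−0.94, edgeR adjusted p = 0.00132) and Trbc1 (−0.33, adjusted p = 0.0442) called lower and Cd3e (0.71, adjusted p = 0.00242) and Cd3g (0.72, adjusted p = 0.0221) called higher (log2 fold changes). Il17a, which encodes the cytokine that defines Th17 cells, held 347, 306 and 222 CPM in Control against 161, 40.3 and 77.4 CPM in KO (log2 change −1.65 with SE 0.424, edgeR adjusted p = 0.0125), and Il17f held 1218, 1538 and 938 CPM in Control against 817, 329 and 374 CPM in KO (log2 −1.28, SE 0.34, adjusted p = 0.0144). Il21 (log2 fold change −2.16, adjusted p = 0.000236) and Il23r (−1.35, adjusted p = 0.0231), which also mark these cells, were called lower as well. The 7 myeloid markers summed to 3.14 to 5.92 CPM in Control and 17.2 to 28.6 CPM in KO. Of these Cd68 (log2 fold change 2.66, edgeR adjusted p = 0.00079) and Csf1r (1.72, adjusted p = 0.0256) were called higher. Cd68 alone held 13.3, 21.4 and 25.3 CPM in the KO libraries, most of the sum. Cd14 (1.36, adjusted p = 0.0646) and Fcgr3 (−1.33, adjusted p = 0.0536) were not called, but all KO libraries of Fcgr3 lay below all Control libraries. Lyz2 had 0 to 4 counts per Control library and 8 to 46 per KO library, and Itgam and Adgre1 had 0 to 3 and 0 to 5 counts. Markers of CD8 T and NK cells summed to 10.8 to 15.1 CPM in Control and 15.1 to 16.2 CPM in KO, with Eomes at 1 to 8 counts per Control library and 35 to 44 per KO library (3.78, adjusted p = 0.000946) and Ncr1 and Klrb1c at 0. Cd8a (0.68, adjusted p = 0.253), Klrd1 (0.47, adjusted p = 0.301) and Cd8b1, which went the other way (−0.31, adjusted p = 0.373), were not called. B cell markers summed to 8.33 to 12.3 CPM in Control and 6.38 to 7.16 CPM in KO, with Ighm (−0.77, adjusted p = 0.0285) and Cd79b (−1.96, adjusted p = 0.0236) called lower. Cd79a went the other way (0.46, adjusted p = 0.4) and was not called. Erythroid and fibroblast markers each summed to under 1 CPM in every library. The part of these shifts in the results was not tested.

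Of the 40 mitosis genes, 39 were called lower in KO and 0 higher by edgeR's quasi-likelihood test (adjusted p under 0.05; 39 lower and 0 higher at an unadjusted p under 0.05, and the same counts by DESeq2's test). Among all 14268 genes tested, 22.9% were called lower and 23.2% higher, 46.1% in either direction. The median log2 fold change of the 40 genes was −1.34, against 0.013 over all tested genes. A decrease of at least 2-fold was found in 36 of the 40, against 11.0% of all tested genes. The genes called lower lay between −1.67 (Bub1) and −0.83 (Kif20a), with a median SE of 0.239. Their KO means stood at 31.4% (Bub1) to 56.4% (Kif20a) of the Control means. Only Bub3 was not called. In bulk RNA, fewer cells in division and less of these transcripts per dividing cell cannot be told apart.

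**Figure D1:**
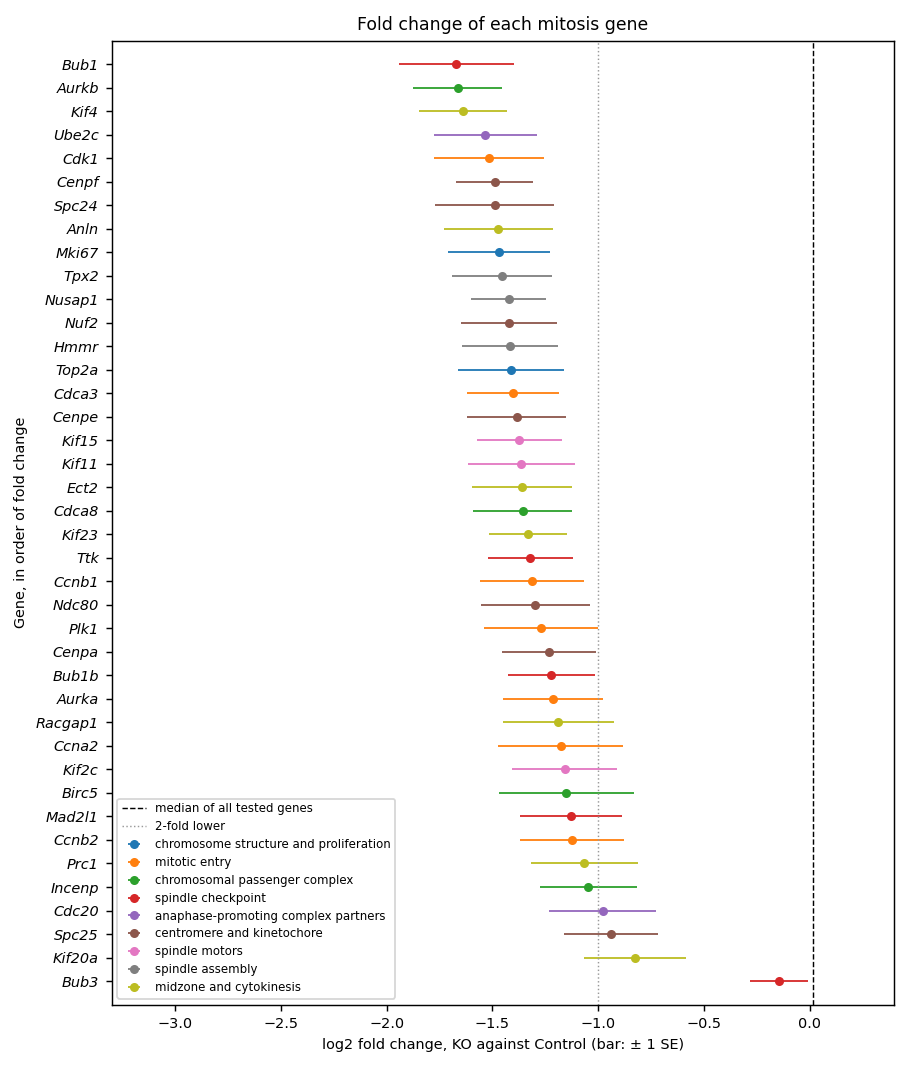
Log2 fold change of KO against Control for each of the 40 mitosis genes (points, with bars of 1 SE from edgeR; 3 libraries per group), coloured by role, with the median of all tested genes dashed and a 2-fold decrease dotted. All genes but Bub3 lie between −1.67 and −0.83, and colours of different roles are mixed along the order.

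Together the 40 genes took 0.682%, 0.739% and 0.525% of all counts in the Control libraries, by replicate number, against 0.374%, 0.256% and 0.205% in the KO libraries. The highest KO library thus lay below the lowest Control library. Libraries of 1 group also differed from one another in a shared direction. Control replicate 3 held the lowest Control value for 40 of 40 genes, and Control replicate 2 the highest for 35. KO replicate 1 held the highest KO value for 40 of 40 genes, and KO replicate 3 the lowest for 38. Rtf1 had its highest KO value in KO replicate 1 and its lowest in KO replicate 3 as well. In Control, Rtf1 was highest in replicate 1 (94 CPM), unlike most of the 40 genes, and lowest in replicate 3 (88.3 CPM). With 3 libraries per group no relation can be tested. For 38 of the 40 genes no KO library reached the lowest Control library, a pattern seen in 28.0% of all tested genes, and the opposite pattern (29.9% of tested genes) occurred in 0 of the 40. The exceptions were Birc5 and Bub3.

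Within libraries of equal replicate number, the median log2 ratio of KO to Control over the 40 genes was −0.93 for number 1, −1.71 for number 2 and −1.41 for number 3 (on log2 of CPM plus 0.5). The fall was smallest with number 1 for 39 genes and largest with number 2 for 35. Apart from Bub3, every gene was lower in KO within each number, from −0.46 at the least (Kif20a, number 1) to −2.12 at the most (Ube2c, number 2). With replicate 3 of both groups left out, 39 genes were again called lower and the median was −1.31.

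**Figure D2:**
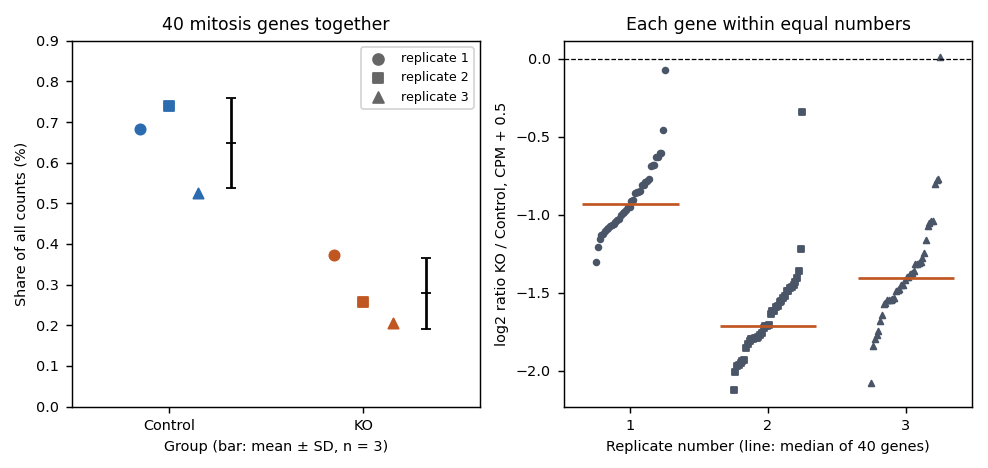
Left, the share of all counts in % taken by the 40 mitosis genes in each library (points by replicate number; bar, mean ± SD, n = 3); right, the log2 ratio of KO to Control within equal replicate numbers for each of the 40 genes, sorted, with the median as a line. The KO shares of 0.205% to 0.374% lie under the Control shares of 0.525% to 0.739%, and the ratios are least negative for number 1.

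Promoters of the 40 genes were searched for the letters of elements known from mitotic genes. The cell cycle genes homology region (CHR element) is bound by the DREAM and MuvB complexes, which silence mitotic genes in resting cells and activate them in G2, and the CCAAT box is bound by NF-Y. Promoter windows from RefSeq (build GRCm38.p6, 250 bases before to 50 after the transcript start) were matched for 34 of the 40 genes. No window was matched for Ccna2, Aurkb, Incenp, Spc24, Tpx2 and Kif20a. The CHR letters (TTTGAA or TTCGAA, either strand) were present in 28 of the 34 genes (82.4%), against 21.7% of all 27025 genes with a window and 16.7% of the 10397 of these that were tested for expression. The CCAAT letters (either strand) were present in 26 (76.5%), against 41.1% and 42.9%. Both were present in 24 (70.6%), against 8.61% and 7.1%. A match of letters is a description and not a bound site, and a gene with several windows was counted once if any of them matched.

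The 180 bases from 150 before to 30 after the start are shown for Bub1, Ube2c and Cdk1, which are among the 5 largest decreases, and for Top2a, the gene with the highest level per length. Each reads 5′ to 3′ on the gene's strand, in GRCm38.p6, with CHR and CCAAT letters in capitals on either strand (TTCAAA and ATTGG are their reverse complements). The windows are chr2:127831830-127832009 (minus strand), chr2:164769779-164769958 (plus strand), chr10:69352883-69353062 (minus strand) and chr11:99024160-99024339 (minus strand), in this order.
Bub1: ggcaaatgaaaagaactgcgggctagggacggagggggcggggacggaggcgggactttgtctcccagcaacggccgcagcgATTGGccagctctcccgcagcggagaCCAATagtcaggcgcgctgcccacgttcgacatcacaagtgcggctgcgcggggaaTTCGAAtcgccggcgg
Ube2c: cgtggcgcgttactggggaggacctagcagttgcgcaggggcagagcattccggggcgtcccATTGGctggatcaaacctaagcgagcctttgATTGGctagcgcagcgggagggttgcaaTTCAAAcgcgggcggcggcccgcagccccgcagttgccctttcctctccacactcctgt
Cdk1: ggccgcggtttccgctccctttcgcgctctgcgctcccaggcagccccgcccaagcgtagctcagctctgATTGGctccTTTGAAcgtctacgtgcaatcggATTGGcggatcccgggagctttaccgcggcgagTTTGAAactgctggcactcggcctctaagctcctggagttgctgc
Top2a: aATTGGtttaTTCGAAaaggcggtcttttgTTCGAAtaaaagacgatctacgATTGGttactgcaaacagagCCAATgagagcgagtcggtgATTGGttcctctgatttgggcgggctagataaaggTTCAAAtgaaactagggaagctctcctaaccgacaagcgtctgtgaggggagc

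All 4 held at least 1 CHR match and at least 2 CCAAT matches in these 180 bases. Kif4, also among the 5 largest decreases but not shown, held 1 CHR and 1 CCAAT match. Over these 180 bases, 23 of the 34 genes held the CHR letters (67.6%, against 9.02% of the tested genes with a window). Both motifs were present in 20 (58.8%, against 3.02%). In Ube2c and Cdk1 the CHR match nearest the start began 29 and 15 bases before it, downstream of the CCAAT boxes, and in Bub1 it began 15 bases after it. At the first of its 2 starts Bub3, which was not called, also held a CHR match, 43 bases before the start, and 2 CCAAT matches. In Cdca8 a CHR and a CCAAT match shared letters. In GRCm38 the GENCODE gene models span chr2:127801122-127831865 for Bub1, chr11:69045647-69051664 for Aurkb, chrX:100625737-100727214 for Kif4, chr2:164769898-164778822 for Ube2c, chr10:69335146-69352938 for Cdk1 and chr7:131560222-131571895 for Bub3.

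**Figure D3:**
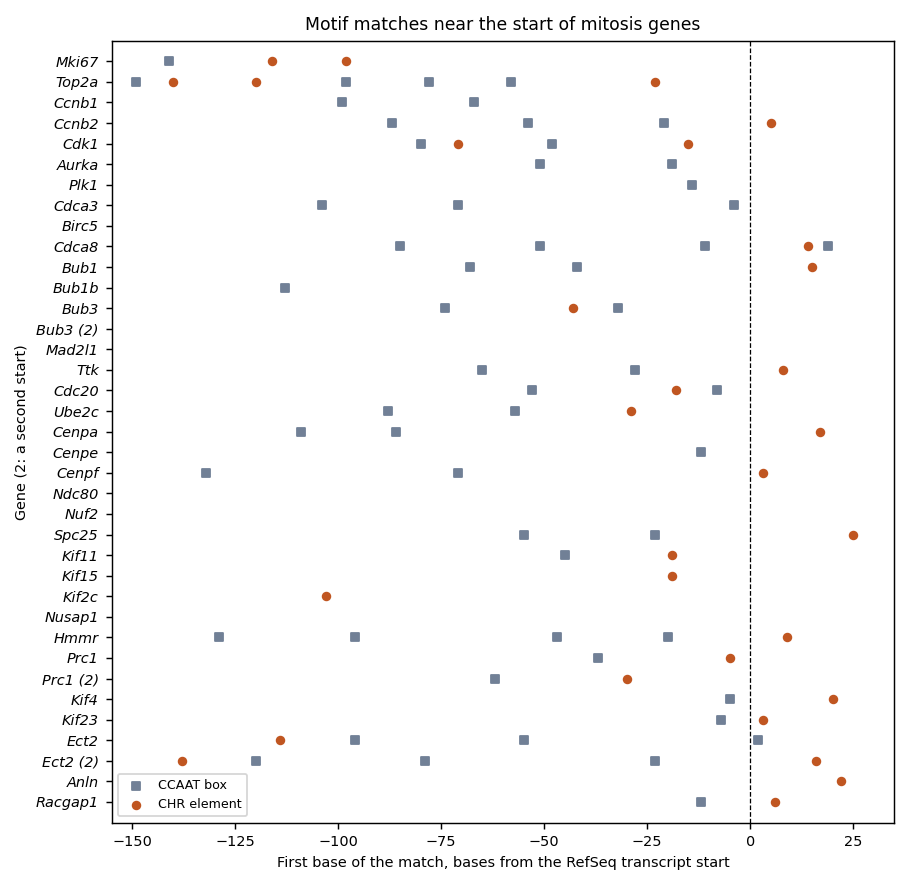
Position of each CHR match (circles) and CCAAT match (squares), as bases from the RefSeq transcript start to the first base of the match, in the 180-base windows (37 windows) of the 34 mitosis genes with a RefSeq promoter; 3 genes have a second start. Most CCAAT matches lie before the start and most CHR matches close to it, while Birc5, Mad2l1, Ndc80, Nuf2 and Nusap1 show none of either.

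Among the genes of mitotic entry, all 7 were called lower. Cdk1, the kinase whose activation starts mitosis and whose promoter is shown above, held 153, 179 and 100.2 CPM in the Control libraries (replicates 1 to 3 in order) against 68.3, 44.2 and 38.4 CPM in the KO libraries. Its groups did not overlap, and it fell by 1.52 on the log2 scale (SE 0.261, edgeR adjusted p = 0.00213). Ccnb1, its partner cyclin B1, held 185, 219.6 and 134 CPM in Control against 98.7, 64.5 and 53.6 CPM in KO (log2 change −1.31 with SE 0.248, edgeR adjusted p = 0.0032), but 23.4% of its 50-base sequences are shared with other transcripts, mainly its copy Ccnb1-ps, so its value is uncertain. Ccnb2, cyclin B2, fell from 79.5 ± 18.8 to 36.4 ± 11.5 CPM (SD, n = 3; log2 −1.13, SE 0.246, adjusted p = 0.0061). Ccna2, cyclin A2, which also acts in S phase, fell from 211 ± 57.7 to 93.2 ± 37.5 CPM (log2 −1.18, SE 0.295, adjusted p = 0.0112). Plk1, a kinase of centrosome maturation and mitotic entry, fell from 97.8 ± 23.6 to 40.5 ± 15.4 CPM (log2 −1.27, SE 0.269, adjusted p = 0.00536), and Aurka, the spindle pole kinase, from 72.3 ± 17.6 to 31.2 ± 9.24 CPM (log2 −1.21, SE 0.238, adjusted p = 0.00375). Cdca3, which takes part in the degradation of the Cdk1 inhibitor Wee1, fell from 83.8 ± 20.5 to 31.7 ± 7.33 CPM (log2 −1.40, SE 0.217, adjusted p = 0.00138).

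Mki67 and Top2a were the most abundant of the 40 genes. Mki67, which encodes the Ki-67 coat of mitotic chromosomes, held 1083, 986 and 862 CPM in the Control libraries (replicates 1 to 3 in order) against 504, 285 and 269 CPM in the KO libraries (log2 change −1.47 with SE 0.241, edgeR adjusted p = 0.00174). Top2a, the topoisomerase that disentangles sister chromatids, held 1071, 1367 and 913 CPM in Control against 570.5, 395 and 292 CPM in KO (log2 change −1.41 with SE 0.25, edgeR adjusted p = 0.00243). In both genes the lowest Control library exceeded the highest KO library. Per kilobase of exon, the scale on which genes can be compared, Top2a stood first of the 40 in Control at 124 ± 25.6 CPM per kb and in KO at 46.5 ± 15.6. Mki67 came next in both groups (97.1 ± 11 and 35.1 ± 13.1 CPM per kb). Ttk and Anln were the lowest, at 7.95 ± 0.706 and 7.13 ± 1.34 CPM per kb in Control. In the order of the genes per length Bub3 moved furthest, from rank 23 in Control to rank 7 in KO. Other genes moved by fewer ranks, such as Kif20a from 29 to 22 and Bub1 from 20 to 26.

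**Figure D4:**
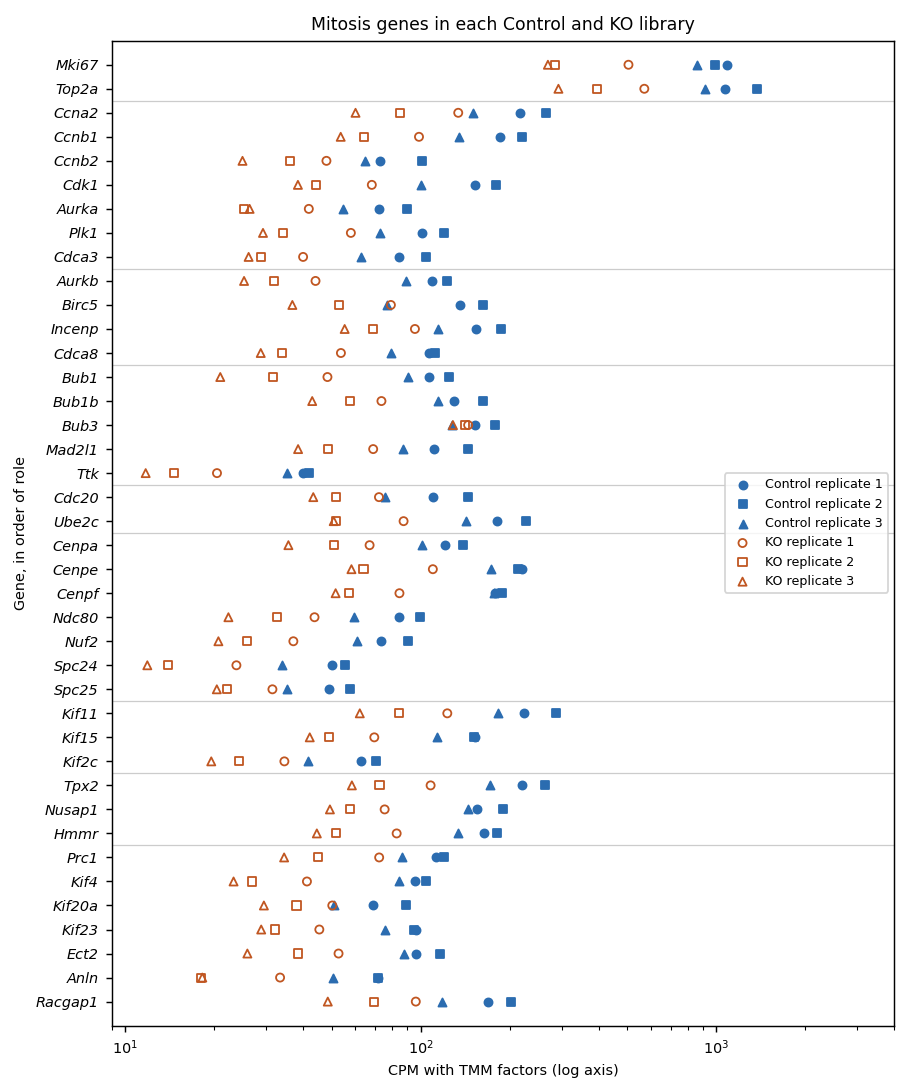
CPM with TMM factors (log axis) of each of the 40 mitosis genes in the 3 Control libraries (filled) and the 3 KO libraries (open), with marker shape for the replicate number and grey lines between roles. Except in Bub3 and Birc5 the open points all lie to the left of the filled ones, and within each group the libraries keep nearly the same order from gene to gene.

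The chromosomal passenger complex, which corrects faulty attachments at centromeres and later moves to the spindle midzone, has 4 subunits, and all were called lower. Its kinase Aurkb held 109, 123 and 89.1 CPM in the Control libraries (replicates 1 to 3 in order) against 44.1, 31.9 and 25.3 CPM in the KO libraries (log2 change −1.66 with SE 0.209, edgeR adjusted p = 0.000584). This was the decrease next in size to that of Bub1. Cdca8, borealin, fell from 99.4 ± 17.4 to 38.8 ± 13.2 CPM (SD, n = 3; log2 −1.36, SE 0.235, adjusted p = 0.0022). Incenp, the scaffold, held 154, 186 and 114 CPM in Control against 95.6, 68.8 and 55.3 CPM in KO (log2 −1.05, SE 0.23, adjusted p = 0.00627). Birc5, survivin, held 136, 163 and 76.9 CPM in Control against 79.3, 52.8 and 36.8 CPM in KO (log2 −1.15, SE 0.319, adjusted p = 0.0174). Here KO replicate 1 lay above Control replicate 3, so the groups overlapped. The call for Birc5 was lost when Control replicate 2 (log2 −0.92, adjusted p = 0.0662), KO replicate 2 (log2 −1.10, adjusted p = 0.065) or KO replicate 3 (log2 −0.92, adjusted p = 0.0505) was left out.

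In the spindle checkpoint, 4 of 5 genes were called lower. Bub1, a kinase that recruits checkpoint proteins to kinetochores, held 107, 125 and 90.3 CPM in the Control libraries (replicates 1 to 3 in order) against 48.4, 31.6 and 21 CPM in the KO libraries, the largest decrease of the 40 genes (log2 change −1.67 with SE 0.271, edgeR adjusted p = 0.00168). Bub1b, which encodes the checkpoint effector BubR1, fell from 135 ± 24.9 to 58.1 ± 15.4 CPM (SD, n = 3; log2 −1.22, SE 0.207, adjusted p = 0.00199). Mad2l1, whose product binds Cdc20, fell from 114 ± 28.7 to 52.1 ± 15.6 CPM (log2 −1.13, SE 0.24, adjusted p = 0.00542), and Ttk, the kinase at the top of the checkpoint, from 39.1 ± 3.47 to 15.6 ± 4.44 CPM (log2 −1.32, SE 0.203, adjusted p = 0.00132). Bub3, which brings Bub1 and BubR1 to the kinetochore, held 152, 179 and 128 CPM in the Control libraries (replicates 1 to 3 in order) against 145, 141 and 129 CPM in the KO libraries. Its KO libraries all lay within the range of the Control libraries, and it was not called (log2 change −0.15 with SE 0.139, edgeR adjusted p = 0.412). Its log2 fold change was lowest with Control replicate 3 left out, at −0.32, and highest with Control replicate 2 left out, at −0.032. It was called in 0 of 14 alternatives.

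The log2 ratio of Bub1 to Bub3 was −0.51, −0.51 and −0.50 in Control and −1.57, −2.14 and −2.59 in KO, a difference of −1.59 between the groups (exact permutation test over 6 libraries, two-sided, p = 0.1, the smallest this design allows; Benjamini-Hochberg adjusted p = 0.2 over the 4 ratios compared). Control libraries were nearly equal in this ratio, and every KO library was lower. Bub1 had the largest decrease of the 40 genes and Bub3 alone was not called, so this shift restates the results of these genes. The ratio of Aurka to Aurkb was −0.60, −0.45 and −0.70 in Control and −0.074, −0.33 and 0.061 in KO on the log2 scale, a shift of 0.47 with no overlap (exact permutation p = 0.1, adjusted p = 0.2). For Ccnb1 to Ccnb2 the shift was −0.19 (exact permutation p = 0.2, adjusted p = 0.267), and for Ccna2 to Ccnb1 it was 0.11 (exact permutation p = 0.3, adjusted p = 0.3), both with overlapping libraries. With 3 libraries against 3 none of these tests can pass 0.05.

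Both partners of the anaphase-promoting complex, the ubiquitin ligase that ends mitosis, were called lower. Ube2c, its ubiquitin-conjugating enzyme, held 181, 226 and 143 CPM in the Control libraries (replicates 1 to 3 in order) against 87.5, 51.6 and 50.8 CPM in the KO libraries (log2 change −1.53 with SE 0.244, edgeR adjusted p = 0.00156). The groups did not overlap. Exons of Ube2c overlap those of Tnnc2 over 22.8% of their bases, but Tnnc2 had 0 to 3 counts per library. Cdc20, its activator in mitosis, held 110.2, 144 and 75.8 CPM in Control against 72.2, 51.8 and 43.3 CPM in KO (log2 −0.98, SE 0.252, adjusted p = 0.0127). The lowest Control library and the highest KO library of Cdc20 were close, and the call was lost without KO replicate 2 (log2 −0.92, adjusted p = 0.0539). Cdc20 shares 10.4% of its 50-base sequences with other transcripts, mainly Gm7856, so its value is uncertain.

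All 7 centromere and kinetochore genes were called lower. Cenpa, the histone H3 variant that marks centromeres, fell from 121 ± 19.3 to 51.2 ± 15.7 CPM (SD, n = 3; log2 change −1.23 with SE 0.221, edgeR adjusted p = 0.00258). Cenpf, a large protein of the outer kinetochore, fell from 181 ± 6.39 to 64.5 ± 17.8 CPM (log2 −1.49, SE 0.181, adjusted p = 0.000515) and had the smallest adjusted p of the 40 genes. Its Control libraries differed little, and its KO libraries lay far below them. Cenpe, the kinesin that moves chromosomes to the metaphase plate, fell from 202 ± 25.3 to 77.4 ± 28.3 CPM (log2 −1.38, SE 0.233, adjusted p = 0.00197). The NDC80 complex, which grips microtubules, is built of Ndc80, Nuf2, Spc24 and Spc25. Ndc80 fell from 81.2 ± 19.99 to 33 ± 10.7 CPM (log2 −1.30, SE 0.258, adjusted p = 0.00399), Nuf2 from 74.8 ± 15 to 27.9 ± 8.38 CPM (log2 −1.42, SE 0.228, adjusted p = 0.00159) and Spc24 from 46.6 ± 11.3 to 16.5 ± 6.37 CPM (log2 −1.49, SE 0.28, adjusted p = 0.00316). Spc25 held 49, 57.8 and 35.4 CPM in Control against 31.5, 22.2 and 20.4 CPM in KO (log2 −0.94, SE 0.221, adjusted p = 0.00866), among the 5 smallest changes. Whether Spc25 differed from the other subunits was not tested.

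The 3 spindle motors were called lower. Kif11, the plus-end motor that pushes spindle poles apart, fell from 231 ± 53.3 to 89.8 ± 30.8 CPM (SD, n = 3; log2 change −1.36 with SE 0.254, edgeR adjusted p = 0.00307). Kif15, which can share this task, fell from 139 ± 22.3 to 53.6 ± 14.3 CPM (log2 −1.37, SE 0.2002, adjusted p = 0.00106), and Kif2c, which takes microtubules apart at centromeres, from 58.4 ± 15 to 26.2 ± 7.68 CPM (log2 −1.16, SE 0.249, adjusted p = 0.00567). The 3 spindle assembly genes lay close together. Tpx2, the activator of Aurora A on the spindle, fell from 218 ± 45.8 to 79.7 ± 25.5 CPM (log2 −1.45, SE 0.238, adjusted p = 0.00172). Nusap1, which bundles microtubules near chromosomes, fell from 163 ± 24.1 to 60.8 ± 13.4 CPM (log2 −1.42, SE 0.177, adjusted p = 0.000559), and Hmmr, a spindle pole protein, from 159 ± 23.9 to 59.7 ± 20.4 CPM (log2 −1.42, SE 0.228, adjusted p = 0.00163).

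Genes of the midzone and of cytokinesis, 7 in number, were all called lower and ranged from the decrease of Kif4 to that of Kif20a, the smallest that passed the test. Kif4, the chromokinesin that limits the length of midzone microtubules, held 95.6, 105 and 84.8 CPM in the Control libraries (replicates 1 to 3 in order) against 41.2, 27 and 23.3 CPM in the KO libraries (log2 change −1.64 with SE 0.207, edgeR adjusted p = 0.000599). The groups lay well apart, and the overlapping gene Pdzd11, which shares 15.1% of the exonic bases of Kif4, had a log2 fold change of −0.038 (adjusted p = 0.836). Kif20a, which carries the passenger complex to the midzone, held 69.2, 88.9 and 50.7 CPM in Control against 50.2, 38 and 29.5 CPM in KO (log2 −0.83, SE 0.24, adjusted p = 0.0209). Its lowest Control and highest KO libraries nearly touched. The call for Kif20a was lost without Control replicate 2 (log2 −0.62, adjusted p = 0.0764), KO replicate 2 (log2 −0.80, adjusted p = 0.0728) or KO replicate 3 (log2 −0.66, adjusted p = 0.0661), and 29.3% of its exonic bases overlap Cdc23, whose own log2 fold change was −0.47 (adjusted p = 0.0258).

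Anln, which links the contractile ring to the membrane, fell from 64.6 ± 12.1 to 23.3 ± 8.81 CPM (SD, n = 3; log2 change −1.47 with SE 0.257, edgeR adjusted p = 0.00229). Ect2, the activator of RhoA at the cleavage site, fell from 100.2 ± 14.8 to 39 ± 13.4 CPM (log2 −1.36, SE 0.236, adjusted p = 0.00223). Kif23 and Racgap1, which together form centralspindlin, fell from 89.3 ± 11.7 to 35.4 ± 8.77 CPM (log2 −1.33, SE 0.185, adjusted p = 0.000858) and from 163 ± 42.1 to 71.4 ± 23.9 CPM (log2 −1.19, SE 0.263, adjusted p = 0.00652). Prc1, the crosslinker of midzone microtubules, fell from 106 ± 17.5 to 50.6 ± 19.6 CPM (log2 −1.07, SE 0.253, adjusted p = 0.00893). Exons of Prc1 overlap those of Rccd1 over 11.1% of their bases and those of Ccna2 overlap Exosc9 over 12.5%. Neither Rccd1 (log2 fold change −0.25, adjusted p = 0.41) nor Exosc9 (adjusted p = 0.995) was called.

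Other genes of cell division were read from 9 lists of 137 genes, chosen by complex and function with earlier results of these data known. Of the 137, 101 were called lower and 7 higher, against 22.9% and 23.2% of all tested genes, and the median log2 fold change was −0.96. Regulators of Cdk1 were called lower in 10 of 12 genes, with 0 higher. Cdc25b, a phosphatase that activates Cdk1, fell most, from 66.2 ± 2.74 to 18.8 ± 3.15 CPM (SD, n = 3; log2 change −1.82 with SE 0.146, edgeR adjusted p = 0.000114), and Cdc25c fell from 24.2 ± 4.24 to 9.44 ± 2.06 CPM (log2 −1.35, SE 0.207, adjusted p = 0.00132). Transcription factors of mitotic genes were called lower in 8 of 13, with 0 higher. The replicate block gave lower calls in 26.4% of all tested genes and higher calls in 3857 of 14268. Under it 10 of the 13 were lower and 1 higher. That gene was Rbl2, a pocket protein of DREAM named after its values were seen, at 0.36 (adjusted p = 0.117) without the block and 0.39 (adjusted p = 0.0243) with it. It was also called higher with Control replicate 3 left out (0.54, adjusted p = 0.00655) and with replicate 3 of both groups left out (0.55, adjusted p = 0.00609). With Control replicate 3 left out 11 of the 13 were lower, where 25.8% of all tested genes were. Foxm1, which activates genes of G2 and M phase, fell from 70.6 ± 15.6 to 29.99 ± 9.61 CPM (log2 −1.23, SE 0.243, adjusted p = 0.00391). Mybl2, the MYB protein that joins MuvB at CHR elements, fell from 59 ± 17.7 to 25.4 ± 8.13 CPM (log2 −1.21, SE 0.275, adjusted p = 0.00726).

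The constitutive centromere network, which links centromeric chromatin to the kinetochore, was called lower in 14 of 14 genes (median log2 fold change −1.14), and Cenpp fell most (log2 change −1.64 with SE 0.277, edgeR adjusted p = 0.00201). Condensin, which compacts chromosomes, was called lower in 8 of 8 (median −1.21), with Ncapg falling from 149 ± 11.4 to 49.5 ± 16 CPM (log2 −1.58, SE 0.212, adjusted p = 0.000734). In the outer kinetochore and SKA list 15 of 18 were called lower (median −1.31; largest for Ska1, log2 −1.52, SE 0.3003, adjusted p = 0.00385), and in the list of other spindle and centrosome genes 24 of 26 (median −1.04; largest for Aspm, log2 −1.52, SE 0.208, adjusted p = 0.000818). Each of these lists had 0 genes called higher.

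Each of the remaining 3 lists had genes called higher. Cohesin, the ring that holds sister chromatids, and its regulators were called lower in 12 of 17 genes (median −0.60). The largest decrease was that of Cdca5, sororin, which protects cohesin (log2 change −1.34 with SE 0.266, edgeR adjusted p = 0.00401), and the 1 gene called higher was Mau2, a subunit of the cohesin loader (log2 0.74, SE 0.124, adjusted p = 0.00199). The anaphase-promoting complex and its regulators were called lower in 9 of 17 (median −0.36), with the inhibitor Fbxo5 falling most (log2 −1.25, SE 0.306, adjusted p = 0.0103) and the subunit Anapc2 called higher (log2 0.61, SE 0.116, adjusted p = 0.00325). That count of lower calls was 4 of 17 when only library size was used for scaling, where 19.6% of all tested genes were called lower. It was 4 if Control replicate 2 (20.6% of all tested genes) or KO replicate 3 (16.9%) was left out. It was 5 if Control replicate 1 (19.1%) or KO replicate 2 (15.1%) was. It was 11 with the replicate block (26.4%), with upper-quartile scaling (23.9%) and if Control replicate 3 was left out (25.8%). The abscission list, mainly ESCRT genes that cut membranes in many processes besides division, had 1 gene called lower and 5 higher of 12 (median 0.22). Cit, the citron kinase of the cleavage furrow, fell from 90.7 ± 15.6 to 30.5 ± 8.14 CPM (log2 −1.57, SE 0.202, adjusted p = 0.00063), while Chmp1a rose from 64.8 ± 1.54 to 158 ± 15.9 CPM (log2 1.29, SE 0.113, adjusted p = 0.000142). Without Control replicate 1, 3 abscission genes were called higher and the median was 0.094. Higher calls over all tested genes were also fewer there, 2355 of 14991, against 3305 of 14268 in the main fit.

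**Figure D5:**
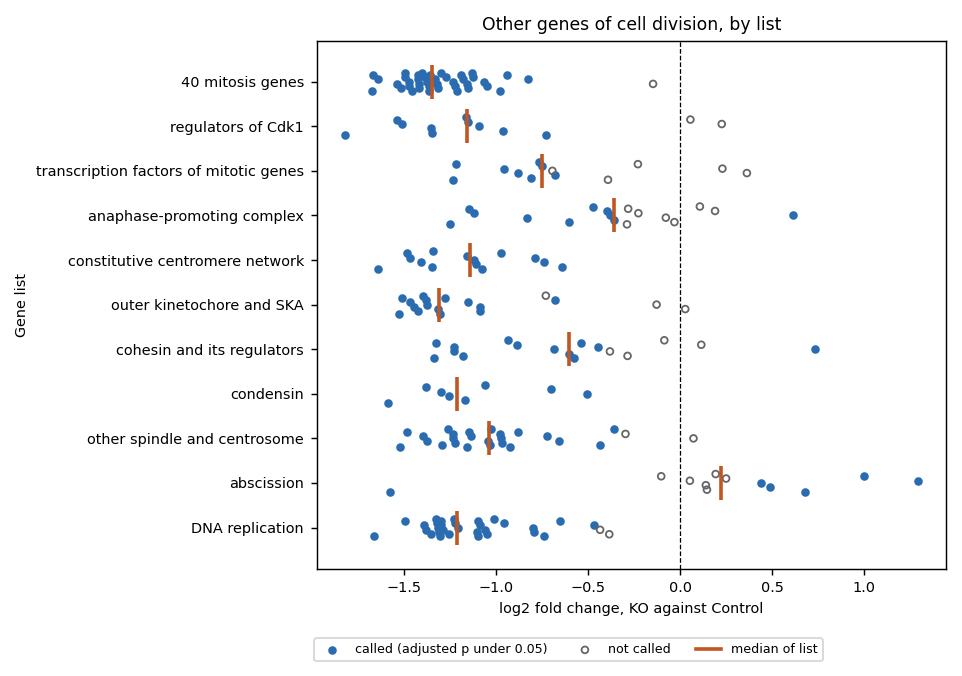
Log2 fold change of KO against Control for each gene of the 40 mitosis genes, the 9 other lists of cell division and the DNA replication list (filled, adjusted p under 0.05; open, not called; line, median of the list). The 40 mitosis genes, the centromere network, condensin and the DNA replication list lie to the left of 0 throughout, while the abscission list lies mostly to the right.

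Genes of DNA replication, which act in S phase before mitosis, were read beside them. Of 32, 30 were called lower and 0 higher, and their median log2 fold change was −1.21, against −1.34 for the 40 mitosis genes. Pold1, a catalytic subunit of DNA polymerase delta, fell most (log2 change −1.66 with SE 0.238, edgeR adjusted p = 0.000971). The 32 genes took 0.499%, 0.562% and 0.333% of all counts in the Control libraries, by replicate number, against 0.301%, 0.214% and 0.181% in the KO libraries. As with the mitosis genes, Control replicate 3 was the lowest Control library and KO replicate 1 the highest KO library. Whether the mitosis and replication genes differed in the size of their decrease was not tested.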

How the data were processed

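The deposited values were whole-number read counts per gene symbol for 6 libraries, not normalized; STAR, featureCounts, DESeq2 and the build mm10 are named in the submitters' processing notes, without versions, and the annotation and strand setting are not given in the sources used here. edgeR 4.0.16 (R 4.3.3) was fitted over all genes (TMM scaling, the filterByExpr filter on groups, no covariates), and Benjamini-Hochberg adjusted p under 0.05 was called; SE is the absolute log2 fold change over the root of F. The filter kept 14268 genes, all 40 mitosis genes among them. On simulated data the fit called 68.7% of 99 genes changed by 1 on the log2 scale and 88.7% of 97 changed by 2. It made 8 false calls. Far fewer genes were changed there than were called in these data, and the simulated replicates were not paired. The summed Th17 markers are not reported here.

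Lists, the 40 genes and the rule for naming others (in each list, the called gene with the largest decrease and increase, and Foxm1, Mybl2 and Cdc25c) were chosen with earlier results of these data known. Exon lengths, overlaps and shared 50-base stretches come from GENCODE M21 (GRCm38), where all 40 symbols were found. Libraries of equal replicate number deviated together from their group means across genes (correlations 0.34, 0.12 and 0.43 for numbers 1 to 3, against −0.46 to 0.28 for unequal numbers). For number 2 this was weak, as Control replicate 2 correlated more with KO replicate 1 (0.28) than with KO replicate 2 (0.12). Deviations from a group mean cancel out within the group, so high correlations for equal numbers force low ones for unequal numbers. The contrast between them is therefore partly fixed in advance. Ratios within equal numbers and the replicate block treat libraries of equal number as pairs, although no label explains the numbers. The main fit did not, so its SE, p-values and calls are unpaired. Alternatives were other scalings, DESeq2 1.42.0, other filters, the replicate block and leaving out libraries.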

Additional observations from a re-analysis of the deposited data

How the results depend on the processing

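The fits were repeated with size factors of DESeq2, with upper-quartile scaling, with library size only, with DESeq2's own test, 2 other filters, the replicate block, without each library and without replicate 3 of both groups, 14 alternatives in all. The count of mitosis genes called lower lay between 36 and 39, and 0 were called higher under each. The share of all tested genes called lower moved as well, from 15.1% (without KO replicate 2) to 26.4% (replicate block). Counts for every list should be read beside it. Their median log2 fold change ran from −1.61 (without KO replicate 1) to −1.16 (without KO replicate 3). Of the 39 genes called lower, 36 kept the call under all 14; Birc5, Kif20a and Cdc20 lost it only when 1 library was left out. With the replicate block 39 were called lower (median −1.37), 108 of the 137 genes of the 9 lists and 31 of 32 replication genes; the block changed no call among the 40. Mitosis genes with all KO libraries below all Control libraries were counted in 10 of the alternatives and numbered 36 (library size only) to 40. The value of 40 was reached with libraries left out, where this pattern is easier to reach. It was seen in 28.0% of all tested genes in the main fit, and that share was not computed for the alternatives. Lower calls in the 9 lists ranged from 87 to 109, higher calls from 5 to 8, and replication genes called lower from 23 to 32. Library size as the only scaling moved the median of all genes to 0.10 and that of the mitosis genes to −1.26. The 4 ratios kept their signs, and with TTTGAA alone 27 promoters matched. No spike-in is named in the sources, so all values are relative to the other transcripts.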
